A study of Mus musculus with 6 samples.

Results

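The genes described here are 41 that act in DNA replication and at the start of the S phase of the cell cycle. They are the S-phase genes of a list in common use for scoring cell cycle phase, and they were taken from the deposited counts table by gene symbol. The table held 22287 genes, and all 41 had a row and were expressed enough to be tested among 17305 genes. The tissue was the apical end of mandibular first molars, where the root forms, from C57BL/6 mice aged 7.5 postnatal days. The mutant group, Gli1-CreER;Arid1a fl/fl, had 3 libraries, numbered replicates 3, 4 and 5, in which tamoxifen activates a Cre recombinase made in Gli1-expressing cells and the floxed Arid1a alleles are cut there. The control group, Arid1a fl/fl, also had 3 libraries, numbered replicates 2, 3 and 5, and carried the floxed alleles without the driver. Mice of both groups received tamoxifen at postnatal day 3.5. Arid1a encodes a subunit of the SWI/SNF chromatin remodelling complex, and the study asked, per its title, how the loss of this gene bears on the cell cycle arrest of differentiating root progenitors. Because Gli1-CreER was present in the mutants alone, an effect of the driver and an effect of Arid1a loss cannot be told apart.

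Before a cell replicates its DNA, origins are licensed in G1 by loading of the MCM helicase, a step that Cdc6 helps and geminin blocks. At the G1/S boundary the helicase is activated by Cdc45 and the GINS complex, DNA polymerases copy the strands on the PCNA sliding clamp, ribonucleotide reductase supplies the deoxynucleotides, and histone chaperones rebuild chromatin behind the fork. E2F transcription factors switch many of these genes on when cyclin-dependent kinases release them from the retinoblastoma proteins. In the growing tooth root, dividing progenitors lie in the apical tissue and leave the cycle as they become odontoblasts.

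The deposited values were expected counts per gene, which need not be whole, and they summed to 20453247 to 24255352 per mutant library and to 21067012 to 22533024 per control library. Counts were put on a common total per library (CPM) after TMM scaling, a method that centres most genes on no change. Arid1a was measured at 120, 134 and 130 CPM in mutant replicates 3, 4 and 5, against 210, 202 and 204 CPM in control replicates 2, 3 and 5. The groups did not overlap, and Arid1a fell in the mutants with a log2 fold change of -0.68 (SE 0.07, adjusted p = 0.0129 by the edgeR quasi-likelihood test with Benjamini-Hochberg adjustment, which gave every adjusted p below). The call did not hold without control replicate 2 (adjusted p = 0.0506), without control replicate 3 (0.0529), with the replicate number as a block (0.0769) or with the erythroid level as a term (0.052), and its direction held in each. The block fit takes the group difference from replicates 3 and 5 alone, because the numbers 2 and 4 each stand in 1 group. Each of these fits also called fewer genes over all those tested. The source of the remaining Arid1a RNA was not tested. Gli1, the driver gene and a Hedgehog target, had 32.7, 39.8 and 39.3 CPM in mutants against 91.1, 76.7 and 98.0 CPM in controls, with a log2 fold change of -1.25 (SE 0.12, adjusted p = 0.00753, but 0.0506 without control replicate 2 and 0.0527 with the erythroid level as a term). Its locus carries the CreER insertion in the mutants, so the insertion and a fall of Hedgehog signalling cannot be told apart in this value. The 8 odontoblast markers were all detected, and they summed to 43484 to 53493 CPM in mutants and 49631 to 51424 CPM in controls. Col1a1 carried most of these sums, with means of 38109 CPM in mutants and 38957 CPM in controls. Nothing in the labels says how many animals gave each library, so the p-values measure the spread between libraries.

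The 4 promoter windows below belong to the genes with the smallest p that had a window. Sequences were read from RefSeq on GRCm38.p6, from 250 bases before to 50 bases after each gene's start, 5′ to 3′ on the gene's own strand. Capitals mark CCAAT, the letters bound by NF-Y, and GGGCGG, the letters bound by Sp1, on either strand, so CCAAT can read ATTGG and GGGCGG can read CCGCCC. None of the 4 held an E2F match in the forms searched, which says only that those letters are not in these windows.
Rrm1 promoter (chr7:102441445-102441744, plus strand): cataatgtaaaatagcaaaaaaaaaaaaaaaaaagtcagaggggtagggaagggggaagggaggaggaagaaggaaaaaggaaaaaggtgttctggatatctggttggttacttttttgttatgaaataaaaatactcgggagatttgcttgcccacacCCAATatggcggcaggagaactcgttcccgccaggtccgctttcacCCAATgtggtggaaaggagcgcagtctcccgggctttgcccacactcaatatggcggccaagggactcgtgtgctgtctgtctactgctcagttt
Rrm2 promoter (chr12:24708004-24708303, plus strand): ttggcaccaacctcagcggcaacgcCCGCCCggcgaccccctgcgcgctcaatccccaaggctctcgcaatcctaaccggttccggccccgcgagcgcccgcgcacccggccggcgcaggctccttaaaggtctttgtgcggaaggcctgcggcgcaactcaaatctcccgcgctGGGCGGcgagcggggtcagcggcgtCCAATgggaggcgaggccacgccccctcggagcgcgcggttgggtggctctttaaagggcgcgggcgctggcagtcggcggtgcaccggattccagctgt
Pcna promoter (chr2:132253131-132253430, minus strand): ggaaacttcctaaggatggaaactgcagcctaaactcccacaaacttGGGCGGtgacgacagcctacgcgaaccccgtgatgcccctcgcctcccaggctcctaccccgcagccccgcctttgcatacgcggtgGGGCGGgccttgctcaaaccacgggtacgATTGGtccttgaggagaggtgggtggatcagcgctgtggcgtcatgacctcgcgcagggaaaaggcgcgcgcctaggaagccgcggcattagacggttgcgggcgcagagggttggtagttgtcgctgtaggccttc
Chaf1b promoter (chr16:93883651-93883950, plus strand): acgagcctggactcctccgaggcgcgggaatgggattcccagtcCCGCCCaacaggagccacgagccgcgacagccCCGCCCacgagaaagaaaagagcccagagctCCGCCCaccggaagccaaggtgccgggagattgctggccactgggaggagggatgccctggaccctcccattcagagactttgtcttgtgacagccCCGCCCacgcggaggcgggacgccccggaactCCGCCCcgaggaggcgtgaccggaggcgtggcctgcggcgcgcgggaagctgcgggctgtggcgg

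In the Rrm1 window, 47.0% of the bases were G or C, and CCAAT occurred at bases -91 to -87 and again at -45 to -41, counting the start base as 0. Rrm2 had 1 CCAAT at -50 to -46 and a pair of Sp1 matches in a window of 71.3% G or C. Pcna had CCAAT on the opposite strand at -87 to -83, with a pair of Sp1 matches, and Chaf1b had 5 Sp1 matches and no CCAAT. Of the 41 genes, 31 had a window in the RefSeq table, and the 10 without one were Usp1, Gmnn, Gins2, Exo1, Ccne2, Rfc2, Mcm4, Atad2, Tipin and Dscc1. E2F was searched as TTTCCCGC, TTTCGCGC, TTTGCCGC and TTTGGCGC on both strands, and 12 of the 31 windows (38.7%) held at least 1 match. The same letters occurred in 4.32% of the 12184 windows of protein-coding genes in the counts table and in 2.6% of all 27025 windows. CCAAT was present in 22 of the 31 (71.0%) against 42.3% of the protein-coding windows, and GGGCGG in 21 (67.7%) against 64.7%. The CHR letters TTTGAA and TTCGAA, which are typical of genes expressed in G2 and mitosis, were in 6 of the 31 (19.4%) against 16.7%. Among 46 genes of a G2/M list the shares ran the other way, with 6.52% holding an E2F match and 78.3% a CHR match. TTTGGCGC and TTTCGCGC can overlap on opposite strands. A match is a run of letters and not a site shown to be bound.

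**Figure D1:**
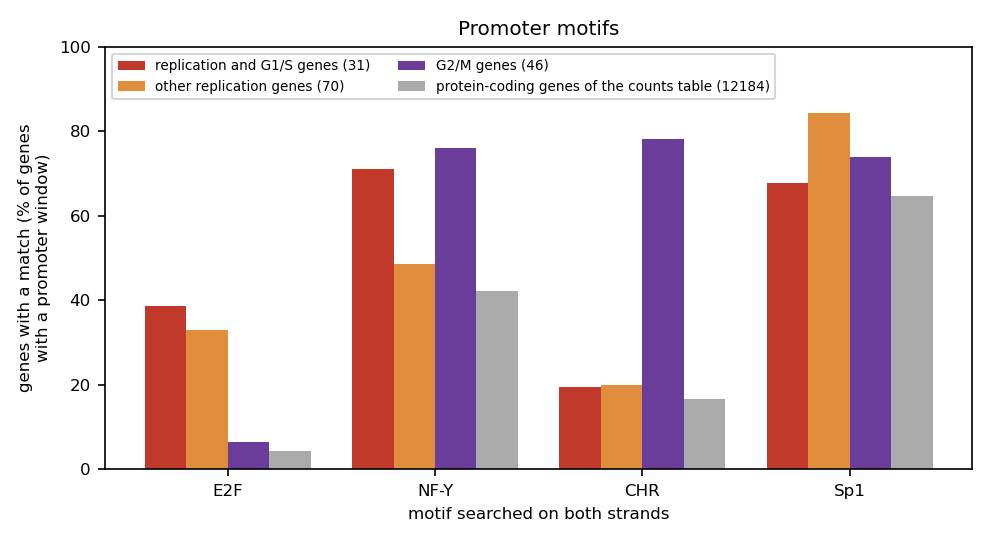
Share of promoter windows with at least 1 match to each motif (y axis, percent of genes with a RefSeq window) for the replication and G1/S genes, other replication genes, G2/M genes and protein-coding genes of the counts table. E2F letters were in 38.7% of the replication and G1/S windows and in 4.32% of the protein-coding ones.

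The E2F matches are printed because they are the sequence feature by which the replication promoters and the background differed most in the motifs searched. The 12 promoters held 15 matches, of which 4 lay within the 100 bases before the start, 3 after it and 8 farther upstream. Each line gives the first match of a gene with 6 bases on both sides, read in the direction of the motif, with the match in capitals. The form TTTGGCGC occurred 6 times, TTTCCCGC 5 times and TTTCGCGC 4 times, and TTTGCCGC did not occur. In Mcm5 and in Mcm6, a TTTCGCGC on one strand overlapped a TTTGGCGC on the other, so that these count as 2 matches each at a single place.
Cdc6 site (chr11:98908007-98908026, minus strand): aggcgaTTTCCCGCtctcca
Mcm5 site (chr8:75109350-75109369, plus strand): aagaacTTTCGCGCcaaaac
Mcm6 site (chr1:128359802-128359821, minus strand): tatgctTTTGGCGCgaaaag
Pola1 site (chrX:93632280-93632299, plus strand): agtgcaTTTGGCGCcctgtg
Pold3 site (chr7:100121472-100121491, minus strand): aagctgTTTCCCGCcggcgg
Uhrf1 site (chr17:56304122-56304141, plus strand): gtcgggTTTCGCGCgcccag
Hells site (chr19:38930922-38930941, plus strand): ccgggtTTTCCCGCgaaaga
Cdca7 site (chr2:72476142-72476161, minus strand): accggcTTTCCCGCgccggg
Ubr7 site (chr12:102757973-102757992, plus strand): gccactTTTCCCGCctcctc
Casp8ap2 site (chr4:32615288-32615307, plus strand): ccagagTTTGGCGCcaactg
Clspn site (chr4:126556995-126557014, minus strand): tcgagcTTTCGCGCccagac
Dtl site (chr1:191575539-191575558, minus strand): cgtcagTTTGGCGCggagtt

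The 12 genes with an E2F match had a median log2 fold change, mutant over control, of 0.32, and the 19 with a window and no match also had 0.32. Values ranged from -0.30 to 0.52 in the genes with a match and from 0.04 to 0.55 in those without. A match in the window did not separate larger from smaller differences among these genes.

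Most replication and G1/S genes had a slightly higher mean in mutant than in control tissue, and 1 of 41 passed the test. That gene was Rrm1, the large subunit of ribonucleotide reductase, which rose in the mutants. No gene was called lower. The share called higher was 2.44%, against 0.659% of all tested genes called higher and 1.2% called lower. A positive log2 fold change was found for 37 of 41 genes (90.2%), against 52% of all genes tested. The median log2 fold change was 0.33, a fold of 1.26, against 0.01 for all genes tested, and it was 0.13 with the level of erythroid markers as a term in the fit. At an unadjusted p under 0.05, 10 genes were higher and 0 lower, against 7.13% of all genes higher and 7.83% lower. Fold changes lay between -0.30 for Hells and 0.60 for Exo1, so no gene of the 41 reached a log2 fold change of 1. In tissue RNA of this kind, more cells in S phase and more RNA of these genes per cell cannot be told apart.

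All 3 mutant libraries lay above all 3 control libraries for 13 of the 41 genes (31.7%), against 10.6% of all genes tested. Those 13 were Rrm1, Rrm2, Pcna, Pola1, Rpa2, Dscc1, Chaf1b, Nasp, Tipin, Exo1, Dtl, Gmnn and E2f8. No gene had all mutant libraries below all control libraries, against 10.8% of all genes tested, and in 28 genes the groups overlapped. The overlap came largely from mutant replicate 3 and control replicate 2. Mutant replicate 3 was the lowest of the mutants for 35 of 41 genes, against 39.1% of all genes, and control replicate 2 was the highest of the controls for 31, against 34.3% of all genes. Without control replicate 2, the mutant libraries lay above the controls for 30 genes, against 17.3% of all genes tested then. Without mutant replicate 3, they did so for 25 genes, against 17.6%, and 1 gene, Ubr7, lay below.

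The split of calls over all genes depended on the scaling, with 114 genes higher and 208 lower under TMM, so that 35.4% of calls were higher. With library totals alone, 411 were higher and 109 lower, 79% of calls, and the median of all genes moved to 0.21. Under that scaling the median of the 41 genes was 0.53, and 4 passed the test, namely Pcna, Rrm1, Rrm2 and Tipin. The Amelx transcript of enamel-forming cells took 4.13 to 6.44% of the counts in mutants and 10.7 to 18.2% in controls.

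**Figure D2:**
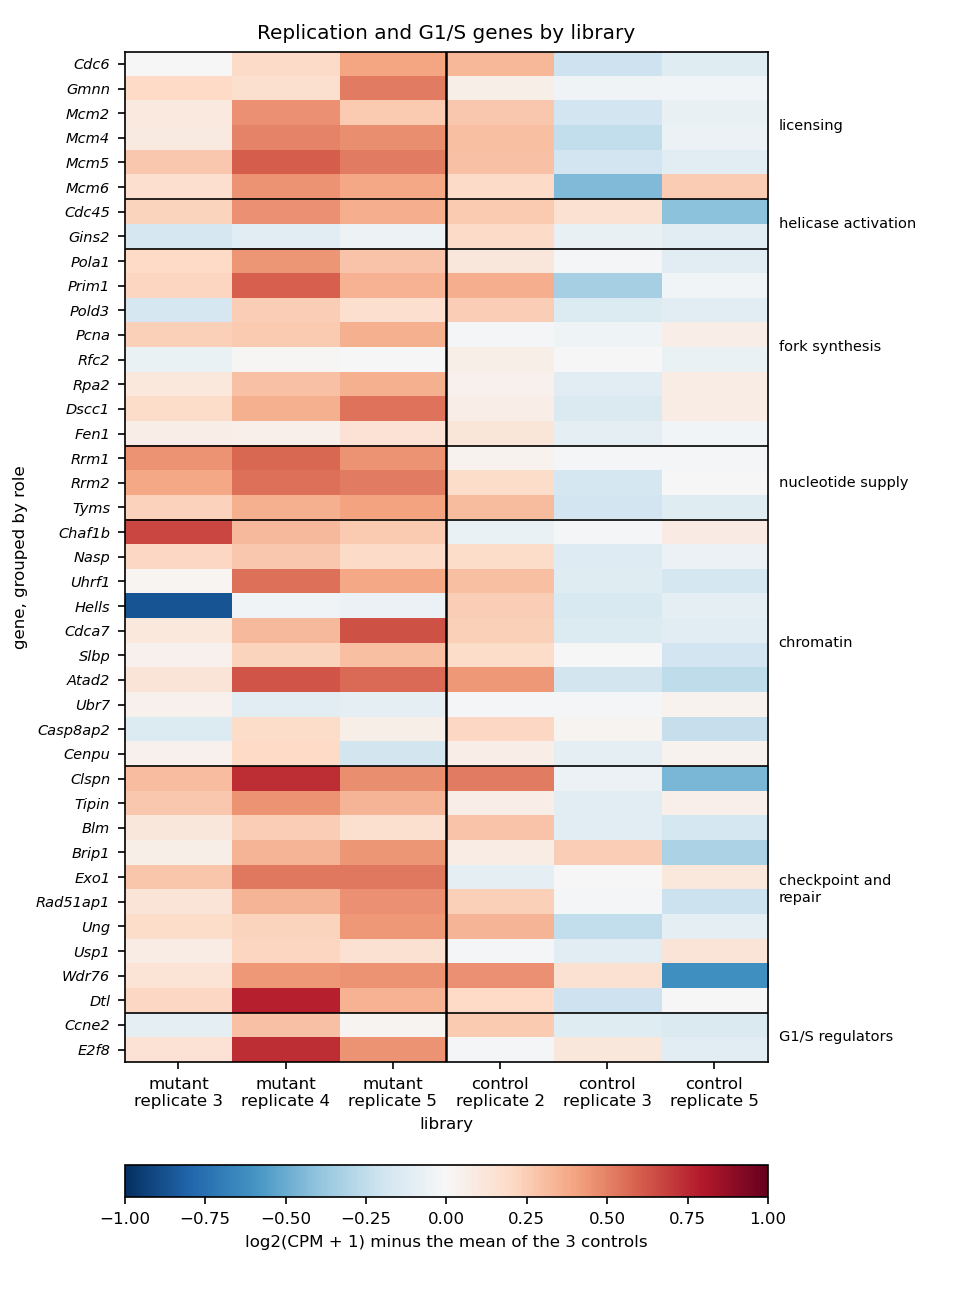
Level of each of the 41 genes in each library, as log2(CPM + 1) minus the mean of the 3 controls (colour), with genes in rows by role and mutant libraries left of control libraries. Mutant replicates 4 and 5 are red in most rows, mutant replicate 3 is paler, and control replicate 2 is redder than the other controls.

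Nucleotide supply was the role in which the mutants stood highest, with all 3 of its genes above 0 and a median log2 fold change of 0.50. Rrm1 makes the large, regulatory subunit of ribonucleotide reductase, the enzyme that turns ribonucleotides into deoxynucleotides, and lies at chr7:102441695-102469771 on the plus strand (GRCm38, GENCODE M21). Rrm1 had 58.6, 64.2 and 58.7 CPM in the mutant libraries, against 43.8, 42.1 and 42.4 CPM in the control libraries. Every mutant value was above every control value, and the spread was small in both groups. Rrm1 averaged 60.5 ± 3.20 CPM in mutants and 42.8 ± 0.898 CPM in controls (SD, n = 3 each), a log2 fold change of 0.50 (SE 0.07, 95% interval 0.33 to 0.67, adjusted p = 0.0227). Leaving out any library other than mutant replicate 3 put its adjusted p between 0.0585 and 0.108. Those fits called 1 to 28 of all genes higher, against 114 with every library kept. The log2 fold change of Rrm1 stayed between 0.46 and 0.52 whichever library was left out. Adding the replicate number as a block gave a log2 fold change of 0.47 and an adjusted p of 0.214. That fit takes the group difference from replicates 3 and 5 alone, and whether those libraries were paired is not known. Over all genes it called 19 higher and 71 lower. With the erythroid level as a term, described with the marker values further on, its log2 fold change was 0.44 and its adjusted p 0.158.

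Rrm2 makes the small subunit that carries the radical of the same enzyme and is made anew in S phase. It had 16.5, 18.6 and 18.1 CPM in mutants against 14.2, 10.8 and 12.3 CPM in controls, and the groups did not overlap. With 17.7 ± 1.11 CPM in mutants and 12.4 ± 1.70 CPM in controls (SD, n = 3 each), its log2 fold change of 0.51 (SE 0.12) did not pass the test (adjusted p = 0.0957). DESeq2 called both Rrm1 and Rrm2, among 360 genes it called higher. Per kilobase of the main transcript, Rrm1 stood at 15.1 CPM in mutants and 10.7 in controls, and Rrm2 at 8.08 in mutants and 5.67 in controls. The level of Rrm1 over that of Rrm2 per kilobase was 1.95, 1.90 and 1.77 in mutants and 1.69, 2.14 and 1.89 in controls, so the groups overlapped in the ratio of the subunits. Tyms, thymidylate synthase, which makes the thymidine precursor of DNA, had 10.1, 11.1 and 11.5 CPM in mutants against 10.7, 7.30 and 7.67 CPM in controls. Control replicate 2 lay among the mutant values for Tyms, and the log2 fold change of 0.34 (SE 0.17) did not pass the test (adjusted p = 0.385). A processed copy, Tyms-ps, has its own row with 64.3 counts over the 6 libraries against 1297 for Tyms.

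**Figure D3:**
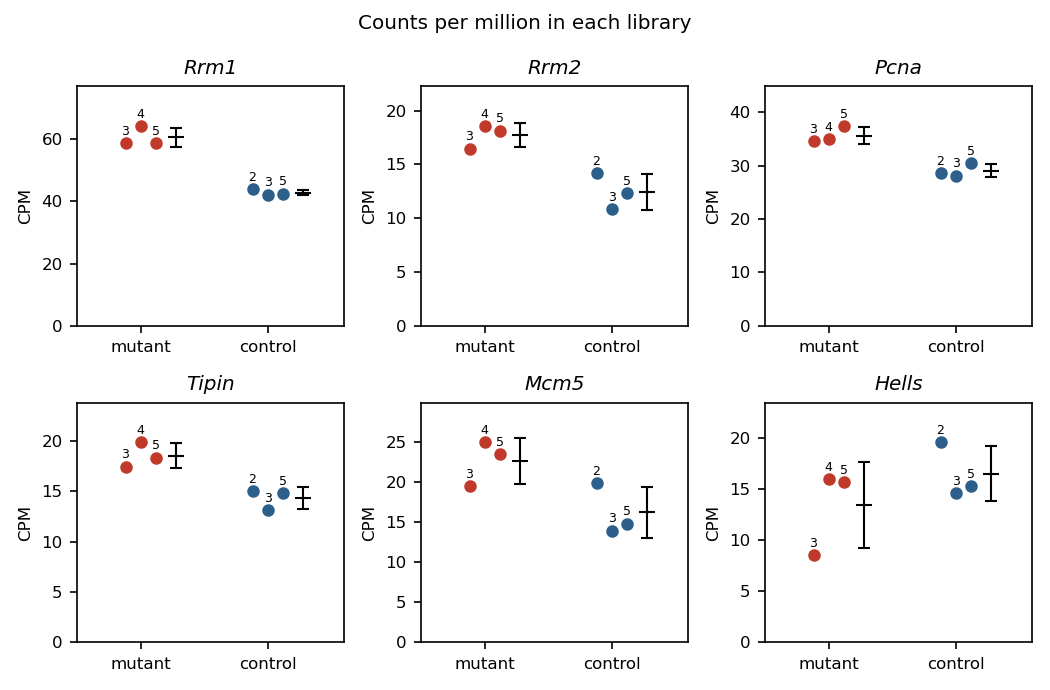
CPM of 6 genes (y axis) in mutant libraries (red) and control libraries (blue), with points numbered by replicate and bars for the mean and SD of 3 libraries. Rrm1, Rrm2, Pcna and Tipin separate the groups, Mcm5 overlaps through control replicate 2, and Hells is low in mutant replicate 3 alone.

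Origin licensing had 6 genes, all with a positive log2 fold change and a median of 0.34, and none passed the test. Mcm5, a subunit of the MCM ring that unwinds DNA, had 19.5, 25 and 23.5 CPM in mutants against 19.9, 14 and 14.9 CPM in controls. Control replicate 2 and mutant replicate 3 were near equal, and the other libraries were apart. Mcm5 lies at chr8:75109569-75128439, and its log2 fold change was 0.48 (SE 0.16, adjusted p = 0.199). Mcm4, another MCM subunit, had 25.9, 34.7 and 33.9 CPM in mutants against 30.2, 20.4 and 23.2 CPM in controls, with a log2 fold change of 0.36 (SE 0.17, adjusted p = 0.373). Mcm6 had 25.5, 31.1 and 29.9 CPM in mutants against 25.9, 16.4 and 27.1 CPM in controls. The ring subunit Mcm2 had 19.8, 25.8 and 22.4 CPM in mutants against 22.4, 16.1 and 17.5 CPM in controls. All 4 of these MCM genes overlapped between the groups, with mutant replicate 4 the highest library in each.

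Gmnn encodes geminin, which holds the loading factor Cdt1 back once S phase has begun. Its values were 3.86, 3.73 and 5.05 CPM in mutants against 3.40, 3.14 and 3.16 CPM in controls, so the groups did not overlap, with a log2 fold change of 0.38 (SE 0.18, adjusted p = 0.387). Cdc6, the loader of the MCM ring, had 2.82, 3.34 and 4.0 CPM in mutants against 3.79, 2.29 and 2.5 CPM in controls. Its log2 fold change of 0.24 (SE 0.25, adjusted p = 0.727) was the lowest of the licensing genes, and the groups overlapped.

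Helicase activation had 2 genes, and they differed in sign. Cdc45, which joins the MCM ring to form the working helicase, had 4.10, 4.99 and 4.61 CPM in mutants against 4.23, 3.84 and 2.29 CPM in controls. Its log2 fold change was 0.40 (SE 0.24, adjusted p = 0.504), and the groups overlapped. Gins2, a subunit of the GINS complex of the same helicase, had 25.5, 26.5 and 27.7 CPM in mutants against 32.9, 27.2 and 26.4 CPM in controls. Control replicate 2 was the highest of all for Gins2, and the log2 fold change was -0.12 (SE 0.10, 95% interval -0.35 to 0.12, adjusted p = 0.66). Both genes overlap others on the opposite strand, and the sources used here do not say whether the counting used strand. Ufd1, the partner of Cdc45, had 1070% of its counts, and the Gins2 partner Gse1 had 290%.

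Fork synthesis covered 8 genes with a median log2 fold change of 0.28, 7 of them above 0 and none past the test. Pcna, the sliding clamp that keeps polymerases on DNA, lies at chr2:132249162-132253314 on the minus strand. It had 34.5, 35.0 and 37.4 CPM in mutants against 28.6, 28.1 and 30.5 CPM in controls. The groups were apart, with means of 35.6 ± 1.56 CPM in mutants and 29.1 ± 1.26 CPM in controls (SD, n = 3 each), and the log2 fold change was 0.29 (SE 0.08, adjusted p = 0.107). Pcna has a processed copy with a row of its own, Pcna-ps2, at 20.4, 24.5 and 21.1 CPM in mutants and 24.3, 18.2 and 16.0 CPM in controls. Estimated counts can divide reads between the copies, so Pcna alone is uncertain. Added together they came to 54.9, 59.4 and 58.5 CPM in mutants and 52.9, 46.3 and 46.5 CPM in controls, which again did not overlap.

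The primase and polymerase that begin each DNA strand were measured through Pola1 and Prim1. Pola1, the catalytic subunit of DNA polymerase alpha, had 13.8, 16.6 and 14.7 CPM in mutants against 13, 11.8 and 11.0 CPM in controls, with no overlap and a log2 fold change of 0.33 (SE 0.12, adjusted p = 0.229). Prim1, the primase subunit that lays down RNA primers, had 7.92, 10.6 and 8.78 CPM in mutants against 8.90, 5.10 and 6.53 CPM in controls. Here control replicate 2 lay within the mutant range. Rpa2, part of the complex that coats single-stranded DNA, had 11.2, 12.9 and 13.6 CPM in mutants against 10.7, 9.50 and 10.9 CPM in controls. Dscc1, a subunit of the loader that puts the clamp on DNA during cohesion, had 1.66, 2.0 and 2.41 CPM in mutants against 1.46, 1.12 and 1.47 CPM in controls. Both Rpa2 and Dscc1 separated the groups, each with an adjusted p of 0.335.

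The other fork genes had log2 fold changes of 0.09 or less. Fen1, the nuclease that trims Okazaki fragments, had 11.3, 11.1 and 12 CPM in mutants against 11.8, 9.97 and 10.5 CPM in controls. Pold3, a subunit of the lagging-strand polymerase delta, had 18.4, 24.9 and 23.5 CPM in mutants against 24.8, 18.9 and 19.2 CPM in controls. Rfc2, a subunit of the main clamp loader, had 24.2, 25.6 and 25.4 CPM in mutants against 26.7, 25.5 and 24.3 CPM in controls. All 3 overlapped between the groups, and the log2 fold change of Rfc2 was -0.02 with a 95% interval of -0.20 to 0.15. Fen1 overlaps Tmem258 on the opposite strand, which had 228% of its counts, so its value is uncertain.

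Chromatin genes numbered 10, of which 8 had a positive log2 fold change, with a median of 0.21 and none past the test. Chaf1b, a subunit of the CAF-1 chaperone that places new histones behind the fork, had 10.7, 8.24 and 7.86 CPM in mutants against 6.03, 6.32 and 6.80 CPM in controls. It did not overlap between the groups, and it was highest in mutant replicate 3, the library that was lowest of the mutants for most of the 41 genes. The means were 8.95 ± 1.57 CPM in mutants and 6.38 ± 0.390 CPM in controls (SD, n = 3 each), with a log2 fold change of 0.49 (SE 0.15, adjusted p = 0.179). Nasp, a histone H3-H4 and linker histone chaperone, had 38.7, 40.5 and 38.3 CPM in mutants against 38.0, 30.5 and 32.1 CPM in controls. The gap between the groups was narrow because control replicate 2 was close to the mutants, and the log2 fold change was 0.22 (SE 0.10, adjusted p = 0.334). Hells, a remodelling helicase that aids DNA methylation, had 8.58, 16.0 and 15.7 CPM in mutants against 19.6, 14.7 and 15.3 CPM in controls. Mutant replicate 3 alone was far down, and the log2 fold change of -0.30 (SE 0.24, 95% interval -0.85 to 0.25, adjusted p = 0.625) was the lowest of the 41.

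Uhrf1, which brings the maintenance methyltransferase to newly copied DNA, had 15.0, 22.1 and 19.6 CPM in mutants against 18.4, 13.5 and 13 CPM in controls. Cdca7, a partner of Hells, had 15.1, 17.8 and 22.3 CPM in mutants against 16.7, 12.6 and 12.9 CPM in controls. Both overlapped through control replicate 2 and mutant replicate 3. Atad2, a bromodomain ATPase, had 14.4, 20.8 and 19.9 CPM in mutants against 18, 11.4 and 10.8 CPM in controls, and Slbp, which binds the stem-loop of histone mRNAs, had 21.7, 24.7 and 26.0 CPM in mutants against 24, 21.1 and 18.2 CPM in controls. The remaining chromatin genes Ubr7, Casp8ap2 and Cenpu had log2 fold changes of -0.05, 0.03 and 0.04. Ubr7 had 34.5, 31.0 and 31.3 CPM in mutants against 32.9, 33.2 and 34.3 CPM in controls, and it was the sole gene of the 41 with mutant replicates 4 and 5 below every control. Opposite-strand partners had 344% of the counts of Cenpu (Primpol) and 31.8% of those of Ubr7 (Gm20604), which makes these values uncertain.

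Checkpoint and repair genes numbered 10, all with a positive log2 fold change, a median of 0.35 and none past the test. Tipin, which with Timeless steadies stalled forks, lies at chr9:64281581-64305424 on the plus strand. It had 17.4, 19.8 and 18.3 CPM in mutants against 15.0, 13.1 and 14.8 CPM in controls. The groups did not overlap, and the means were 18.5 ± 1.21 CPM in mutants and 14.3 ± 1.05 CPM in controls (SD, n = 3 each), a log2 fold change of 0.37 (SE 0.10, adjusted p = 0.128). Exo1, an exonuclease of mismatch and break repair, had 3.01, 3.77 and 3.78 CPM in mutants against 2.09, 2.29 and 2.56 CPM in controls. No library overlapped, and the log2 fold change of 0.60 (SE 0.19, adjusted p = 0.181) was the highest of the 41. Dtl, the substrate receptor that marks Cdt1 for destruction in S phase, had 10.2, 15.7 and 11.4 CPM in mutants against 10.2, 7.44 and 8.76 CPM in controls. Mutant replicate 3 and control replicate 2 were equal for Dtl to the digits given, with the mutant just higher, and the log2 fold change was 0.50 (SE 0.19, adjusted p = 0.267).

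Clspn, the claspin adaptor of the replication checkpoint, had 6.80, 9.54 and 7.73 CPM in mutants against 8.03, 5.06 and 3.59 CPM in controls. Control replicate 2 was above 2 of the mutant libraries there. Usp1, the deubiquitinase that removes ubiquitin from PCNA, had 44.3, 48.8 and 46.7 CPM in mutants against 41.4, 38.9 and 45.9 CPM in controls, and its log2 fold change of 0.15 (SE 0.09, adjusted p = 0.482) was the lowest of this role. The helicases Blm and Brip1, the uracil glycosylase Ung, the homologous recombination factor Rad51ap1 and Wdr76 had log2 fold changes of 0.18, 0.31, 0.33, 0.39 and 0.32. All of them overlapped between the groups, and Wdr76 had the widest control spread of these, at 7.64, 5.99 and 3.10 CPM. Blm overlaps the opposite-strand row Ndufab1-ps, which had 47.8% of its counts.

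The G1/S regulators were E2f8 and Ccne2. E2f8, an E2F factor that represses and is itself switched on in S phase, had 4.6, 7.46 and 5.93 CPM in mutants against 4.04, 4.49 and 3.70 CPM in controls. Its groups did not overlap, and the log2 fold change was 0.55 (SE 0.21, adjusted p = 0.251). Ccne2, a cyclin E that drives entry into S phase, had 6.26, 8.50 and 6.89 CPM in mutants against 8.32, 6.13 and 6.04 CPM in controls, with overlap and a log2 fold change of 0.08 (SE 0.18, adjusted p = 0.89). Ints8 overlaps Ccne2 on the opposite strand and had 452% of its counts.

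**Figure D4:**
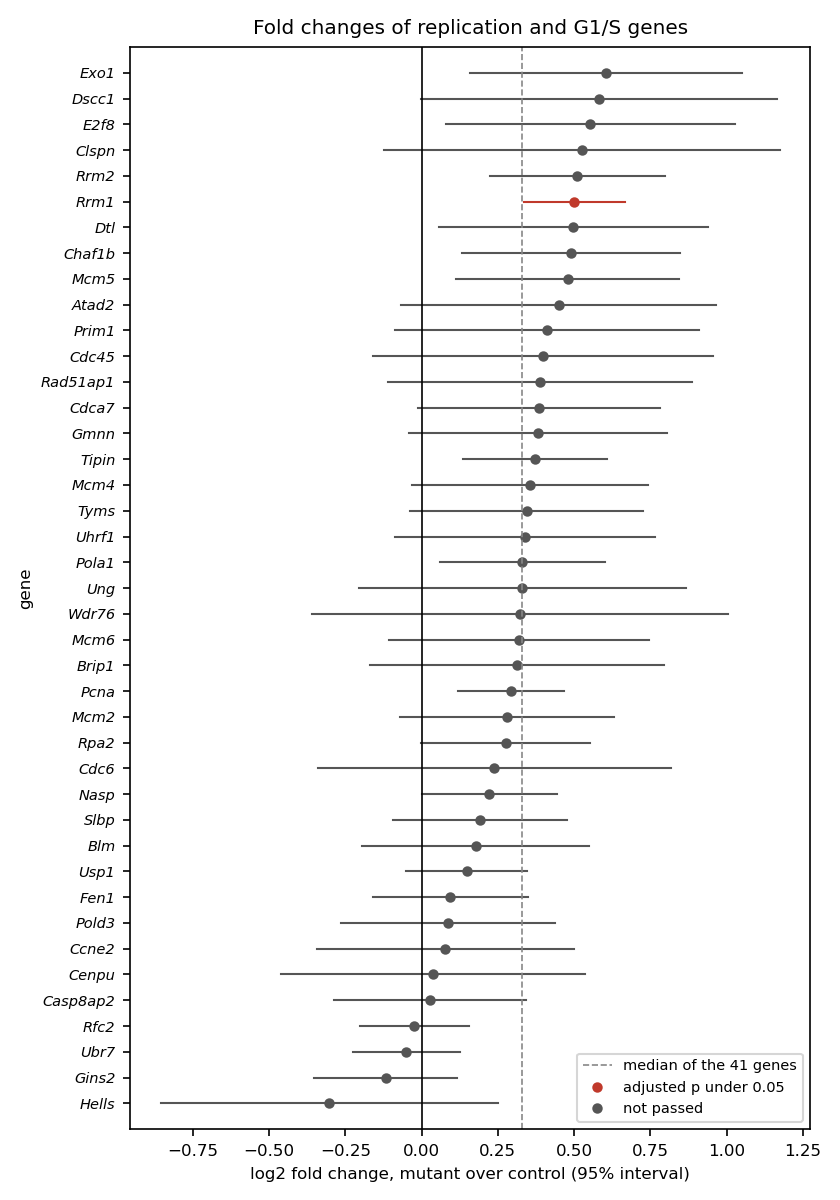
Log2 fold change, mutant over control, of the 41 genes (points) with 95% intervals (lines), ordered by size, with the gene past the test in red. The dashed line is the median of 0.33, and the values run from -0.30 for Hells to 0.60 for Exo1.

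Per kilobase of the main transcript, Pcna was the most abundant of the 41 genes, at 23.5 CPM in mutants and 19.1 in controls, followed by Nasp at 18.5 in mutants and 15.8 in controls. Exo1 was the least abundant, at 0.452 CPM per kilobase in mutants and 0.297 in controls. The median of the 41 genes was 4.66 CPM per kilobase in mutants and 3.6 in controls. Summed CPM of the 41 genes was 637, 744 and 718 in mutants against 661, 545 and 564 in controls, so mutant replicate 3 lay below control replicate 2.

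Of 86 further genes of DNA replication and the G1/S transition, none passed the test, although 69 (80.2%) had a positive log2 fold change, against 52% of all genes tested. Their median was 0.17, and at an unadjusted p under 0.05, 12 were higher and 1 lower, against 7.13% and 7.83% of all genes. DESeq2 called 2 of them and the edgeR likelihood ratio test 1. Over all genes, DESeq2 called 360 higher and 493 lower and the likelihood ratio test 364 and 455. The mutant libraries were all above the controls for 16 of the 86 (18.6%) and all below for 1, against 10.6% and 10.8% of all genes. By role, the medians were 0.12 for licensing, 0.23 for helicase activation, 0.10 for fork synthesis, 0.15 for nucleotide supply, 0.20 for chromatin and 0.07 for G1/S regulators.

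In these other lists the genes with the smallest p included further subunits of the machines above. Mcm7 had 31.7, 37.5 and 32.7 CPM in mutants against 30.4, 26.9 and 28.5 CPM in controls, with no overlap (log2 fold change 0.25, adjusted p = 0.251). Mcm3 had 20.8, 25.8 and 26.5 CPM in mutants against 23.9, 14.6 and 17.1 CPM in controls, again with control replicate 2 among the mutants. Of the helicase activators, Ticrr had 4.33, 5.81 and 6.5 CPM in mutants against 4.77, 3.75 and 3.59 CPM in controls. Dbf4, the activator of the Cdc7 kinase, had 10.0, 12.3 and 10.5 CPM in mutants against 9.00, 8.15 and 10.1 CPM in controls. Both of these helicase genes missed the test, with adjusted p of 0.352 and 0.402. At the fork, the ligase gene Lig1 had 20.3, 23.0 and 25.1 CPM in mutants against 20.9, 16.1 and 17.1 CPM in controls. Timeless, the partner of Tipin, had 11.2, 13.2 and 14.6 CPM in mutants against 12.5, 8.38 and 7.56 CPM in controls. Neither passed the test, with adjusted p of 0.264 and 0.343, and in both control replicate 2 overlapped the mutants.

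Samhd1, which breaks deoxynucleotides down and so works against ribonucleotide reductase, had 44.3, 51.0 and 50.8 CPM in mutants against 40.7, 36.7 and 35.5 CPM in controls. It separated the groups like Rrm1 and Rrm2, with a log2 fold change of 0.37 and an adjusted p of 0.0957. Dut, which clears dUTP, had 13.1, 15.7 and 15.1 CPM in mutants against 12.1, 9.88 and 12 CPM in controls, also with no overlap (adjusted p = 0.212). Among chromatin genes, Cdca7l had 13.4, 14.6 and 14.7 CPM in mutants against 11.8, 9.50 and 10.9 CPM in controls. Chaf1a, the large subunit of CAF-1, had 23.1, 27.9 and 25.9 CPM in mutants against 21.9, 20.5 and 20.6 CPM in controls. Both separated the groups, with adjusted p of 0.139 and 0.203. Of the regulators, Ccna2, the cyclin A of S phase and G2, had 25.9, 36.2 and 32.1 CPM in mutants against 22.2, 19.4 and 17.8 CPM in controls, a log2 fold change of 0.66 (adjusted p = 0.0669). Rb1, the retinoblastoma protein that holds E2F factors in check, had 129, 115 and 94.0 CPM in mutants against 137, 161 and 152 CPM in controls. Every mutant library was below every control for Rb1, with a log2 fold change of -0.41 that did not pass the test (adjusted p = 0.159).

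Genes of G2 and mitosis, the later phases of the same cycle, had larger differences in these libraries, although the difference between the lists was not tested. Of 52 such genes, 50 had a positive log2 fold change with a median of 0.64, and 34 (65.4%) had all mutant libraries above all controls, against 10.6% of all genes tested. The test called 4 higher (7.69%, against 0.659% of all genes) and none lower, and at an unadjusted p under 0.05, 39 were higher and 1 lower, against 7.13% and 7.83%. The 4 that rose were Nek2, a centrosome kinase, Cdca3, a trigger of mitotic entry, Ckap2, a spindle protein, and Ncapd2, a condensin subunit. Nek2 had 6.11, 8.46 and 6.81 CPM in mutants against 3.94, 3.70 and 3.32 CPM in controls (log2 fold change 0.96, adjusted p = 0.0413). Cdca3 had 12.3, 15.0 and 14.9 CPM in mutants against 8.95, 8.10 and 8.76 CPM in controls (log2 fold change 0.71, adjusted p = 0.0363). All mutant libraries were above all controls for the 4 genes. Ckap2 had 9.31, 10.8 and 10.1 CPM in mutants against 6.57, 5.62 and 5.17 CPM in controls (log2 fold change 0.80, adjusted p = 0.0363). Ncapd2 had 39.4, 49.2 and 45.7 CPM in mutants against 32.7, 31.6 and 30.7 CPM in controls (log2 fold change 0.50, adjusted p = 0.0491). The count of 4 moved with the fit. DESeq2 called 28 higher and 1 lower and limma-voom 2 higher, leaving out 1 library gave 0 to 15, and none was called with the replicate block, the epithelial level or the erythroid level as a term. Their median was 0.35 with the erythroid level.

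The libraries of a group differed from each other in the replication and G1/S genes by amounts near the difference between the groups. As a mean of log2(CPM + 1) over the 41 genes, minus the control mean, the mutants stood at 0.12, 0.35 and 0.31 and the controls at 0.18, -0.09 and -0.09. Control replicate 2 was therefore above mutant replicate 3. Mutant replicate 4 was the highest of all 6 libraries for 20 of the 41 genes, against 13% of all genes tested. Mutant replicate 5 was so for 13, against 19.1%, and mutant replicate 3 for 2, against 19.2%. Control replicate 2 was the highest for 6 (14.6%), near its share of 15.3% over all genes. The lowest was control replicate 3 for 20 genes, against 14% of all genes, and control replicate 5 for 13, against 23.3%. The other replication genes were also highest in mutant replicates 4 and 5 and then control replicate 2, at 0.03, 0.23 and 0.19 in mutants and 0.12, -0.06 and -0.06 in controls. The G2/M genes stood at 0.24, 0.63 and 0.58 in mutants and 0.15, -0.05 and -0.10 in controls, and in these the groups did not overlap.

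Markers of red blood cells followed the 41 genes in mutant replicates 4 and 5 but not across the controls. The summed CPM of the 13 erythroid markers with a row, out of 16 listed, was 2368 to 5517 in mutants and 1425 to 1951 in controls. Over the 8 that could be tested, the level minus the control mean was 0.06, 1.33 and 0.91 in mutants and 0.07, 0.23 and -0.30 in controls. It too was high in mutant replicates 4 and 5. Its highest control was replicate 3, and that of the 41 genes was replicate 2. All 8 had a positive log2 fold change and none was called. Hemgn, Klf1, Epb42 and Rhag, which mark nucleated red cell precursors, were each under 2 CPM in every library. With the erythroid level as a term in the fit, the median of the 41 genes was 0.13, 31 were positive and none was called. Rrm1 then had a log2 fold change of 0.44 and an adjusted p of 0.158. Over all genes that fit called 2 higher and 9 lower, against 114 and 208 without the term. The term was itself high in mutant replicates 4 and 5, so it and the group difference cannot be fully told apart in that fit.

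Dental epithelium markers summed to 69251 to 115586 CPM over 12 genes in mutants against 179869 to 279390 CPM in controls, and the enamel matrix genes Amelx, Ambn and Enam carried most of these sums. As a mean level minus the control mean, in which each gene counts alike, the groups overlapped, at 0.03, -0.16 and -0.79 in mutants and -0.29, 0.26 and 0.03 in controls. Amelx was the 1 of them called lower, and 8 of the 12 had a negative log2 fold change. With this mean level as a term, which does not follow the drop in the sums, Rrm1 was the 1 gene of the 41 called. That fit called 92 of all genes higher and 159 lower. Macrophage markers were positive in 9 of 9 genes, with sums of 292 to 384 CPM in mutants and 217 to 265 CPM in controls, and Cd68 was called higher. Dental papilla and apical mesenchyme markers were positive in 7 of 8. They summed to 606 to 614 CPM in mutants and 466 to 522 CPM in controls. Of these markers, 3 were called higher, namely Smoc2, Sfrp2 and Prrx1. Gli1, the driver gene, is also in this list and was called lower (log2 fold change -1.25). The part of macrophages and of apical mesenchyme in the replication values was not tested. Endothelial markers were positive in 7 of 8 genes, Schwann cell markers in 5 of 7, osteoclast markers in 3 of 5 and lymphoid and granulocyte markers in 1 of 5, and none of these was called. Skeletal muscle markers summed to 11.4 to 20.3 CPM in mutants and 13.2 to 38.8 CPM in controls.

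**Figure D5:**
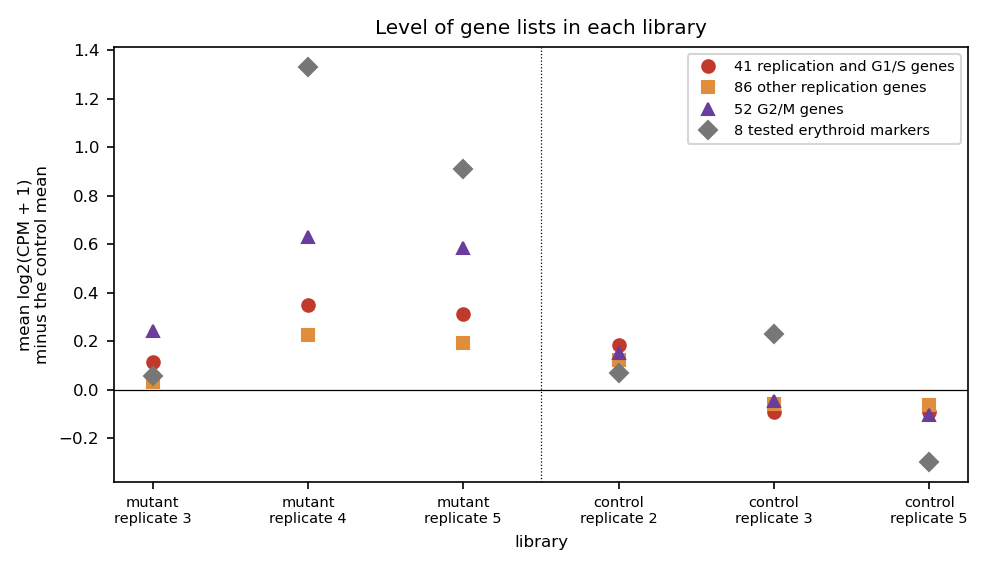
Mean log2(CPM + 1) minus the control mean (y axis) of 41 replication and G1/S genes, 86 other replication genes, 52 G2/M genes and 8 erythroid markers in each library (x axis), mutants left of controls. Control replicate 2 lies above mutant replicate 3 in the 41 genes, at 0.18 and 0.12.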

How the data were processed

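RNA-seq of molar apical tissue was measured in 3 mutant and 3 control libraries as single-end reads. Per the submitters' processing notes, the tools included STAR 2.6.1d and Partek, with the genome build mm10. The sources used here give neither library strandedness nor the annotation. The authors deposited expected counts, estimated counts per gene that need not be whole (53.8% of the values were whole within 0.001), and a normalized table. The authors' normalized signal equals the expected count plus 1 times a factor per library (largest relative deviation 7.15e-06), with a 75th percentile of 39.2 in each library. It served for 1 alternative.

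Expected counts were rounded, and edgeR 4.0.16 (R 4.3.3) was run with filterByExpr by group, TMM scaling, glmQLFit and glmQLFTest over 17305 genes, with Benjamini-Hochberg adjustment over all of them and calls at an adjusted p under 0.05. TMM factors were 1.04 to 1.11 in mutants and 0.872 to 0.977 in controls. CPM per kilobase used the longest principal transcript of GENCODE M21. Libraries of a group differed by more than sampling noise, so each was counted once. The script was tested on simulated data. Alternatives used limma 3.58.1, DESeq2 1.42.0, other scalings and filters, leaving out each library, and marker levels as terms.

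Genes given in every library were, by rule, those past the test, the 10 with the smallest p and, per role, the 2 with the smallest p and the 1 with the lowest fold change. For the other lists, they were those past the test and the 2 with the smallest p. Further values of the 41 genes were added after they were seen. The members and lists were chosen with earlier results of these data known. Among markers of other cell types, 5 had no row and were not analysed here, and a motif search in proteins was not done.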

Additional observations from a re-analysis of the deposited data

How the results depend on the processing

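Under 20 alternatives, the 41 genes and Gli1 (42 genes, with Arid1a apart) gave 840 values, of which 802 kept their direction and side of the threshold, 6 passed it newly, 10 no longer passed it and 22 changed sign. Library totals alone moved the median of all genes to 0.21 and called 411 of all genes higher and 109 lower. Under that scaling, 4 of the 41 genes (median 0.53), 4 other replication genes (median 0.36) and 23 G2/M genes (median 0.84) were called. Gins2, Rfc2 and Ubr7 turned to 0.081, 0.18 and 0.15. DESeq2 called 2 of the 41, 2 others and 28 G2/M genes higher with 1 lower. The likelihood ratio test called 2, 1 and 27 with 1 lower, and limma-voom called Rrm1 and 2 G2/M genes. At an adjusted p under 0.1 there were 2 of the 41, 2 others and 20 G2/M genes with 1 lower. Over all genes, DESeq2 called 360 higher and 493 lower, the likelihood ratio test 364 and 455, and limma-voom 83 and 187. The cutoff of 0.1 gave 272 and 400. Under 0.01, none of the 41 or of the G2/M genes was called, nor Arid1a at -0.68.

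With the erythroid level as a term, 0 of the 41 (median 0.13) and 0 G2/M genes (median 0.35) were called, Arid1a had -0.77 (adjusted p = 0.052 by edgeR), and the sign turned for Pold3 (-0.17), Uhrf1 (-0.0067), Ubr7 (0.043), Casp8ap2 (-0.21), Cenpu (-0.0013), Brip1 (-0.014), Wdr76 (-0.048) and Ccne2 (-0.17). Over all genes, the erythroid fit called 2 higher and 9 lower. With the epithelial level, 0 G2/M genes were called, and Pold3 and Casp8ap2 turned to -0.039 and -0.036. The cause was not tested. In the fit with the replicate block, 0 of the 41 and 0 G2/M genes were called, Cenpu turned to -0.050, and Arid1a had -0.70 (adjusted p = 0.0769). That fit called 19 of all genes higher and 71 lower. The groups shared the numbers 3 and 5, whose libraries' deviations correlated at 0.267 and -0.144. Pairs with unlike numbers ran from -0.447 to 0.3. With 3 libraries a group, these values cannot decide whether libraries were paired.

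Leaving out 1 library at a time gave 0 to 1 called of the 41 with medians of 0.24 to 0.44, 0 to 1 other replication genes and 0 to 15 G2/M genes with medians of 0.55 to 0.76. Over all genes, these fits called 1 to 105 higher and 10 to 138 lower. Between 13 and 30 of the 41 lay above the controls and 0 to 1 below. The count of 30 came without control replicate 2, where 17.3% of all genes tested lay above. Without mutant replicate 3 the share of all genes was 17.6%, and it is not given for the other fits. Arid1a ranged from -0.71 to -0.64, with an adjusted p of 0.0506 without control replicate 2 and 0.0529 without control replicate 3. Signs turned for Rfc2 (-0.049 to 0.014, above 0 without control replicate 2 or mutant replicate 3), Cenpu (-0.092 to 0.17, below 0 without control replicate 3 or mutant replicate 4), Casp8ap2 (-0.075 to 0.15, below 0 without control replicate 5 or mutant replicate 4), and, without mutant replicate 4, Pold3 (-0.00054 to 0.23) and Ccne2 (-0.055 to 0.25). With 3 libraries a group, precision is limited.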
